A study of Mus musculus with 24 samples.

Results

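The genes described here are 40 named genes of DNA replication and mitosis, 10 that act in copying DNA and 30 that act in dividing the cell, followed across all 24 arrays of the series. They were chosen by name, through the gene symbols that the array annotation gives each probe set, and where several probe sets read 1 gene, that with the highest average signal was used. Of the 40 genes, 39 were measured, among 13485 genes tested in all; Ccnb1 had no probe set of its own name alone and was not analysed here. The members measured were 10 replication genes and 29 mitosis genes.

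The series profiled mammary cells of C57BL6/J mice on Affymetrix expression arrays. The tumour samples came from 5 adenocarcinomas, lettered A to E, of mice heterozygous for the Apc1572T allele of the Wnt pathway regulator Apc (Apc+/1572T). The normal samples came from 3 pools of mammary glands of Apc+/+ mice, here called F to H, so that a normal replicate is a pool of glands and not one animal. Each source was sorted into Lin- cells, Lin-CD29+CD24+ cells and Lin-CD29hiCD24+ cells, 10000 cells per sort, which gave 5 arrays for every tumour population and 3 for every normal one. CD29 is an integrin and CD24 a surface glycoprotein, and the CD29hiCD24+ gate is the one the series uses for stem cells. The labels and the submitters' design text are the sources for this, and the stated aims were to compare that gate between tumour and normal tissue and to compare it with the more differentiated cells of the same tissue. Ages were not given in those sources. The Lin- sort carries no gate on CD29 or CD24 in its label, so it can hold cells of both other gates. Apc itself gave means from 10.2 to 10.8 in the tumour populations and from 11.7 to 13 in the normal ones (log2 signal); where its probes lie relative to the mutation was not analysed here, so this is no check of the labels.

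Members of the minichromosome maintenance (Mcm) family form the ring helicase that unwinds DNA at replication forks, the clamp Pcna holds the polymerases on the template, and ribonucleotide reductase and thymidylate synthase supply the nucleotides. Mitosis is then driven by cyclin-dependent kinase with its cyclins, the Aurora and Polo kinases, the spindle checkpoint, the kinetochore and the motors that move chromosomes and split the cell. In proliferating cells the replication genes are transcribed mainly by E2F factors, and many mitosis genes carry a CCAAT box and a cell cycle homology region (CHR) near their start.

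Because most members moved together between tumour and normal tissue, the bases just before the start sites are shown for the 3 replication and the 3 mitosis genes with the largest tumour minus normal difference in CD29hiCD24+ cells that have an entry. Each is 250 bases long, 5′ to 3′ on the gene's strand, from RefSeq on build GRCm38.p6, and it ends at the base before the start. Capitals mark matches, on either strand, to the E2F letters TTTCCCGC, TTTCGCGC, TTTGCCGC or TTTGGCGC, to the CHR letters TTTGAA and to CCAAT. The positions are chr12:24708004-24708253 (+ strand) for Rrm2, chr8:75109259-75109508 (+ strand) for Mcm5, chr6:88898781-88899030 (- strand) for Mcm2, chr4:44300667-44300916 (+ strand) for Melk, chr7:135716380-135716629 (- strand) for Mki67 and chr15:99651657-99651906 (- strand) for Racgap1.
Rrm2: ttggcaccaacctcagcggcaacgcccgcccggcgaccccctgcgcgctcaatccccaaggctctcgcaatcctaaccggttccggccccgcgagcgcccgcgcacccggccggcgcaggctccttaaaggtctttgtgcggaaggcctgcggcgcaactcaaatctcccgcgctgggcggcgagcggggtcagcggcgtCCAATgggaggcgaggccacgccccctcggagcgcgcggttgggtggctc
Mcm5: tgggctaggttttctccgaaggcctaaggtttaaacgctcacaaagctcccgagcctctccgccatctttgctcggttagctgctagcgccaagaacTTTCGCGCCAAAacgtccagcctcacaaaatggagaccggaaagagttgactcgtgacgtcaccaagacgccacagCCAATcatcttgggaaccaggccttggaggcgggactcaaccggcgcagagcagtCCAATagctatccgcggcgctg
Mcm2: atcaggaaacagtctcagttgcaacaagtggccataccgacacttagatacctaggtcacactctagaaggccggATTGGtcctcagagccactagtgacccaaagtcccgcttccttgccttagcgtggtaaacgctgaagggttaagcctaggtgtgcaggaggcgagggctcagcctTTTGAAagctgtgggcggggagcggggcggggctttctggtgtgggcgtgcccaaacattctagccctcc
Melk: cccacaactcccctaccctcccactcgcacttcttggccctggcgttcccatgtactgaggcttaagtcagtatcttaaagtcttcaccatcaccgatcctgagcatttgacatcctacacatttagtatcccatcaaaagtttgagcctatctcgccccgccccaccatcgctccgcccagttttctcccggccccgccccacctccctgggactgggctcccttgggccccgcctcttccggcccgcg
Mki67: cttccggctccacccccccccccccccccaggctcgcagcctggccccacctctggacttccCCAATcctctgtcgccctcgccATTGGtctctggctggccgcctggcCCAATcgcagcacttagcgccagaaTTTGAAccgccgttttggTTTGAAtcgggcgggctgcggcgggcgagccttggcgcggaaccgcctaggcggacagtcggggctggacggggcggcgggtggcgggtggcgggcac
Racgap1: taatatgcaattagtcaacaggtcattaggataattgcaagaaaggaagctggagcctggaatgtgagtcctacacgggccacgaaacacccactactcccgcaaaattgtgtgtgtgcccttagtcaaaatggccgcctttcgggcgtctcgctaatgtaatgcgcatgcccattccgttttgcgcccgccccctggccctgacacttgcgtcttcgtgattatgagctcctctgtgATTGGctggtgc
The window of Rrm2 holds 1 CCAAT, 50 bases before the start. That of Mcm5 holds 2 E2F matches that overlap each other, the first at 153 bases before the start, and 2 CCAAT matches, at 77 and 22 bases. Mcm2 has a CHR match at 70 bases and a CCAAT on the other strand at 175 bases. In Mki67 there are 2 CHR matches, at 116 and 98 bases, and 3 CCAAT matches, at 188, 166 and 141 bases. Racgap1 has 1 CCAAT on the other strand, 12 bases before the start, and the window of Melk, the member with the largest difference of all, holds none of these letters.

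Promoter entries matched 33 of the 39 measured members, 9 replication and 24 mitosis genes. CCAAT was found in 27 of the 33 (81.8%), against 40.2% of the 10838 tested genes with an entry. The E2F letters were in 3 of 9 replication genes (33.3%), which are Mcm5, Mcm6 and Mcm7, and in 1 of 24 mitosis genes (4.17%), Cdk1, against 3.76% of tested genes. CHR letters were in 9 of 24 mitosis genes (37.5%) and 1 of 9 replication genes (11.1%), against 13.4% of tested genes. Both CHR and CCAAT stood in the same window in 8 of 24 mitosis genes (33.3%), against 4.95% of tested genes. These are shares of letters in short windows, given with no test; a match is not a bound site, and its absence says nothing of a factor.

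Tumour cells had higher signals than normal cells for most members in every population. By class medians the gap was widest in CD29hiCD24+ cells and for mitosis genes. Some members, among them Rrm2, Rrm1, Mcm5, Pcna, Top2a and Kif23, rose more in CD29+CD24+ cells. In CD29hiCD24+ cells, 38 of 39 members were called higher in the tumours and 0 lower at an adjusted p under 0.05, where 15.6% of all genes tested were called higher (limma across all 13485 genes, with Benjamini-Hochberg adjustment). Tyms and Ndc80 passed the filter on low values only with their tumour CD29hiCD24+ arrays and so had to be higher there; of the other 37 members, 36 were called higher. All 29 mitosis members and 9 of 10 replication members were among the 38 called, and Pcna was the exception. Every tumour array lay above every normal array for 37 of the 39 members, against 15.7% of all genes. Tyms and Ndc80, which had to be higher there, are among these 37. The median log2 difference, on a scale where 1 unit is a 2-fold difference, was 4.22 over the mitosis members and 1.73 over the replication members, against -0.012 over all genes tested. Since the samples are bulk sorts, more cycling cells and more RNA per cycling cell cannot be told apart. The p-values rest on the spread of arrays within groups, pooled over all populations, from 5 tumours and 3 gland pools. The fit takes the sorts of the same tumour or pool as independent. Their deviations from the group means correlated across genes, at a median of 0.578 within tumours and 0.142 within pools. With the tumour or pool as a replicate block, 38 members were again called higher in CD29hiCD24+ cells.

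**Figure D1:**
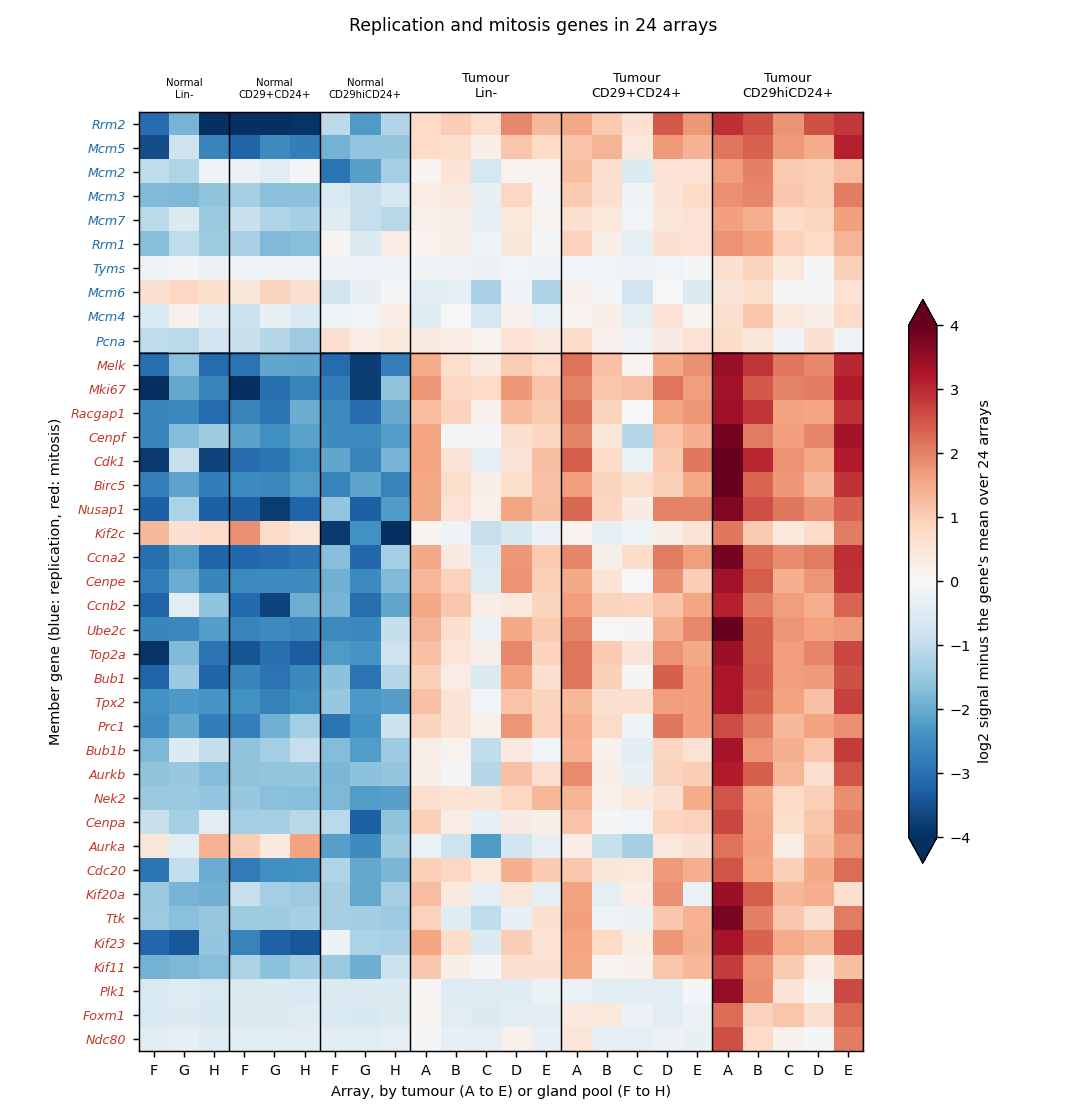
Signal of the 39 measured members (rows, blue names replication and red names mitosis, ordered within a class by the tumour minus normal difference in CD29hiCD24+ cells) in the 24 arrays (columns, tumours A to E and gland pools F to H, by population); colour is the log2 signal minus the gene's own mean over 24 arrays, with the colour scale ending at 4 in both directions. Most members run from blue in the normal arrays to red in the tumour arrays and are reddest in tumour CD29hiCD24+ cells. Mcm6, Kif2c and Aurka are red in normal Lin- and CD29+CD24+ arrays too, except Aurka in the Lin- array of pool G, which lies below its mean.

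In CD29+CD24+ cells, 31 members were called higher in tumours and 1 lower, against 16.4% of all genes called higher and 27.1% called lower. In Lin- cells, 29 were called higher and 3 lower, against 13.9% and 26.6%. The median differences were 3.49 for mitosis and 1.52 for replication members in CD29+CD24+ cells, and 2.88 and 1.24 in Lin- cells, where all genes tested had medians of -0.013 and -0.08. In each of the 3 populations the median of the mitosis members was above that of the replication members; no test was made of the 2 lists. The lower calls were Mcm6 in both populations and Aurka and Kif2c in Lin- cells. Markers of cell types moved with these comparisons: in CD29+CD24+ cells the mean of 8 basal markers was 3.42 ± 0.157 in normal and 8.95 ± 0.183 in tumour arrays (SD), with 4 called higher, that of 7 luminal markers 13 ± 0.0784 and 9.24 ± 1.59, with 7 called lower, and 4 of 8 fibroblast markers were called higher. In Lin- cells 6 of 7 luminal markers were called lower and the basal markers split, 4 higher and 4 lower. Their part in the results was not tested.

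**Figure D2:**
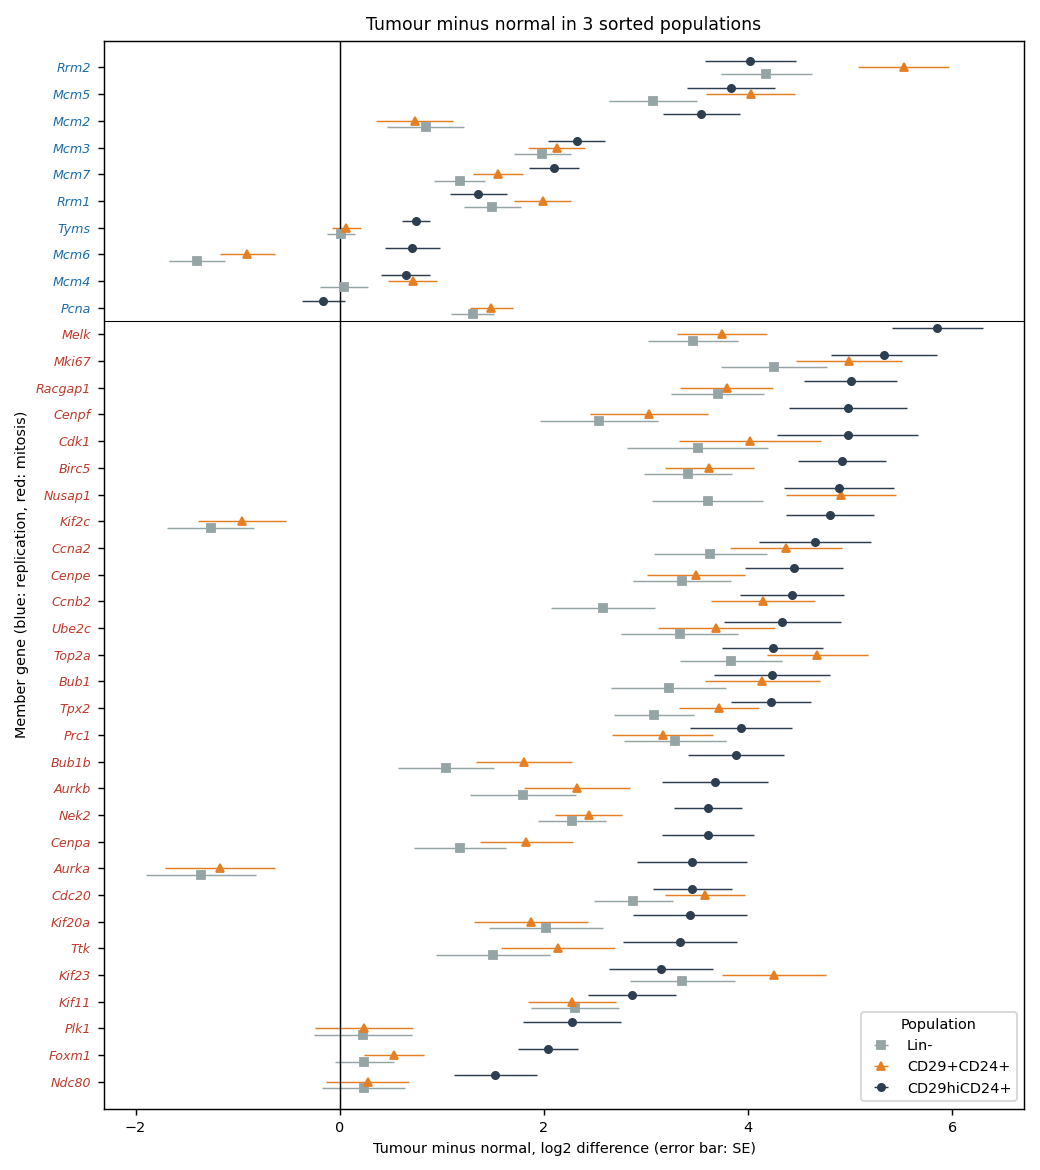
Tumour minus normal log2 difference (horizontal axis, error bars are standard errors) of each member in Lin- cells (squares), CD29+CD24+ cells (triangles) and CD29hiCD24+ cells (circles). Melk, at 5.86 ± 0.44 in CD29hiCD24+ cells, is the farthest to the right, and Mcm6, Kif2c and Aurka lie left of 0 in the other 2 populations.

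The helicase genes did not move as one. Mcm5 had the largest difference of the 6: its signals in the normal CD29hiCD24+ arrays were 8.41, 8.74 and 8.77 (pools F to H), and in the tumour arrays 12.43, 12.68, 12.02, 11.79 and 13.42 (tumours A to E). Every tumour array was above every pool, and the difference was 3.83 ± 0.43 (SE; adjusted p = 6.4e-07, limma). It was 4.03 ± 0.43 in CD29+CD24+ cells and 3.07 ± 0.43 in Lin- cells. Mcm2, Mcm3 and Mcm7 rose in tumour CD29hiCD24+ cells by 3.54 ± 0.38, 2.32 ± 0.28 and 2.10 ± 0.25. In the other 2 populations Mcm3 and Mcm7 rose as well, and Mcm2 did not pass the test, with differences of 0.73 ± 0.38 in CD29+CD24+ and 0.84 ± 0.38 in Lin- cells.

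Mcm4, another subunit of the ring, moved least of the 6 in CD29hiCD24+ cells. Its signals there were 11.22, 11.31 and 11.71 in pools F to H and 12.06, 12.53, 11.84, 11.68 and 12.16 in tumours A to E, so that tumour D lay just under pool H and the groups overlapped. The difference was 0.64 ± 0.24 (adjusted p = 0.036, limma). Mcm6 gave 0.71 ± 0.27 in the same cells (adjusted p = 0.0436). Both calls were lost without any one of tumours A, B and E and of pools F and G, with adjusted p up to 0.139 for Mcm4 and 0.241 for Mcm6, both without pool F; that of Mcm6 was lost without pool H too. In CD29+CD24+ cells Mcm4 rose by 0.71 ± 0.24, a call lost without pool F or H, with the description-number run as a block and with the actin covariate, and in Lin- cells it was not called, at 0.04 ± 0.24.

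Mcm6 ran the other way outside the CD29hiCD24+ gate. In CD29+CD24+ cells its signals were 11.49, 11.94 and 11.70 in pools F to H and 11.21, 11.01, 10.29, 11.05 and 10.46 in tumours A to E, and in Lin- cells 11.66, 11.87 and 11.75 and 10.63, 10.67, 9.76, 10.91 and 9.83. Every tumour array was below every normal array in both populations. Mcm6 fell by 0.91 ± 0.27 (adjusted p = 0.0097; 0.0676 without pool G) and by 1.40 ± 0.27 (adjusted p = 0.000291, limma). A second probe set of Mcm6 gave -1.15 and -1.41 in these comparisons.

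Pcna, the sliding clamp, was the member not called in CD29hiCD24+ cells. It gave 13.19, 12.82 and 12.96 in pools F to H and 13.25, 13.03, 12.39, 13.13 and 12.34 in tumours A to E, and the groups overlapped, at -0.16 ± 0.21 (adjusted p = 0.589, limma). In CD29+CD24+ cells the pools gave 11.65, 11.40 and 11.09 and the tumours 13.27, 12.71, 12.38, 12.86 and 13.10, with no overlap, and Pcna rose by 1.49 ± 0.21. It rose in Lin- cells as well, by 1.30 ± 0.21. Among the group means, 12.99 ± 0.19 (SD, n = 3) in normal CD29hiCD24+ cells lay near the 3 tumour means, which ran from 12.83 to 12.88. The other 2 normal means were lower, at 11.38 ± 0.28 in CD29+CD24+ and 11.58 ± 0.16 in Lin- cells.

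Rrm2, the small subunit of ribonucleotide reductase, was the replication gene with the largest difference. Its signals were 8.69, 7.48 and 8.58 in normal CD29hiCD24+ cells and 12.67, 12.29, 11.55, 12.29 and 12.56 in the tumours' (order as before), and 5.57, 5.68 and 5.82 and 11.27, 10.80, 10.35, 12.19 and 11.49 in CD29+CD24+ cells. Tumour and normal arrays did not overlap in either population, and of these 4 groups the normal CD29+CD24+ arrays were the lowest and closest together. Rrm2 rose by 4.02 ± 0.45, 5.53 ± 0.45 and 4.18 ± 0.45 in CD29hiCD24+, CD29+CD24+ and Lin- cells, each at an adjusted p of at most 4.92e-07 (limma). The large subunit gene, Rrm1, rose less, by 1.36 ± 0.28, 1.99 ± 0.28 and 1.49 ± 0.28. Tyms, thymidylate synthase, gave 3.55, 3.79, 3.34, 2.86 and 3.88 in tumour CD29hiCD24+ cells and between 2.68 and 2.88 in all 19 other arrays. It rose by 0.75 ± 0.14 in CD29hiCD24+ cells and was not called in the other populations.

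Among the regulators that start and end mitosis, all 6 measured members were called higher in tumour CD29hiCD24+ cells. Cdk1, the kinase that triggers mitosis, had the largest difference: 3.69, 3.09 and 3.92 in pools F to H against 10.09, 8.80, 7.57, 7.33 and 8.94 in tumours A to E. The lowest tumour array, that of tumour D, was well above the highest pool, and the difference was 4.98 ± 0.69 (adjusted p = 9.32e-06, limma). In the other populations it was 4.02 ± 0.69 (CD29+CD24+) and 3.51 ± 0.69 (Lin-); in normal Lin- cells pool G, at 4.86, stood apart from F and H at 1.96 and 2.06. Cdc20 activates the ubiquitin ligase that ends mitosis. It gave 8.65, 7.78 and 8.01 in the CD29hiCD24+ pools against 12.36, 11.42, 10.80, 11.36 and 12.06 in the tumours, again without overlap, a difference of 3.46 ± 0.39.

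The cyclins Ccna2 and Ccnb2 rose by 4.66 ± 0.55 and 4.43 ± 0.51 in CD29hiCD24+ cells, and Ube2c, the ubiquitin-conjugating enzyme of that ligase, by 4.34 ± 0.57. These 3 were called higher in the other 2 populations too. Foxm1, a transcription factor of mitosis genes, rose by 2.04 ± 0.29 in CD29hiCD24+ cells. It did not pass the test in the other 2, where the tumours gave 3.44, 3.48, 2.81, 2.62 and 2.80 (CD29+CD24+) and 3.15, 2.62, 2.50, 2.59 and 2.60 (Lin-) and every normal array was between 2.42 and 2.54. These signals are in or near the band at or under 2.83, called the low band, which holds about 40% of all values on the arrays and in which differences are compressed.

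All 8 mitotic kinases rose in tumour CD29hiCD24+ cells, and Aurka was the one called lower elsewhere. Melk, a kinase of dividing and progenitor cells, gave 3.34, 2.66 and 3.66 in pools F to H and 9.85, 9.26, 8.51, 8.32 and 9.44 in tumours A to E. The groups were far apart, and the difference of 5.86 ± 0.44 was the largest of all 39 members (adjusted p = 2.28e-09, limma). Melk rose by 3.74 ± 0.44 in CD29+CD24+ and 3.46 ± 0.44 in Lin- cells. The checkpoint kinases Bub1, Bub1b and Ttk rose in tumour CD29hiCD24+ cells by 4.24 ± 0.56, 3.88 ± 0.47 and 3.33 ± 0.56. Aurkb, the Aurora kinase of the chromosomal passenger complex, and Nek2, a kinase of the centrosome, rose there by 3.68 ± 0.52 and 3.61 ± 0.33. Bub1, Ttk, Aurkb and Nek2 rose in the other 2 populations too, the call of Ttk in Lin- cells being lost without tumour E or pool F, G or H. Bub1b rose in CD29+CD24+ cells and was not called in Lin- cells, at 1.04 ± 0.47.

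Aurka, the Aurora kinase of the spindle poles, was called higher in 1 tumour population and lower in another. In CD29hiCD24+ cells it gave 2.96, 2.60 and 3.69 in the pools and 7.31, 6.76, 5.41, 6.33 and 6.88 in the tumours, without overlap, and rose by 3.46 ± 0.54 (adjusted p = 3.47e-05, limma). In Lin- cells the pools gave 5.62, 4.68 and 6.51 and the tumours 4.85, 4.29, 2.86, 4.39 and 4.78; pool G lay within the tumours' range. Aurka was called lower there, at -1.36 ± 0.54 with an adjusted p of 0.0492, and the call was lost under 11 alternatives, among them leaving out any of tumours B, C and D and pools F and H, with adjusted p from 0.0549 to 0.297. The CD29+CD24+ difference of -1.17 ± 0.54 did not pass the test (adjusted p = 0.0867; 0.042 with the tumour or pool as a replicate block).

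Plk1, the Polo kinase, was above the low band in all 5 tumour CD29hiCD24+ arrays, in 4 of 5 tumour CD29+CD24+ and 2 of 5 tumour Lin- arrays, and in 0 normal arrays. The 5 arrays of that group gave 6.80, 5.12, 3.81, 3.31 and 5.92 (tumours A to E), highest in A and lowest in D. The 3 pools gave 2.71, 2.70 and 2.73, and none of the other arrays of any group exceeded 3.31. The difference in CD29hiCD24+ cells was 2.28 ± 0.48 (adjusted p = 0.000744, limma), with tumour and normal not called different in the other 2 populations.

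All 7 genes of the kinetochore and chromosome group rose in tumour CD29hiCD24+ cells. Mki67, the gene of the Ki-67 proliferation antigen, had the largest difference of the group. Its signals were 5.94, 4.97 and 7.15 in pools F to H and 12.10, 11.21, 10.74, 10.78 and 11.91 in tumours A to E, which do not overlap, and the difference was 5.33 ± 0.52 (adjusted p = 9.73e-08, limma). In CD29+CD24+ cells the pools gave 4.33, 5.73 and 6.07 and the tumours 10.74, 9.85, 9.92, 10.90 and 10.41, and in Lin- cells 4.44, 6.72 and 6.08 and 10.49, 9.58, 9.56, 10.49 and 9.90. The tumours were again all above the pools, by 4.99 ± 0.52 and 4.26 ± 0.52, so the Ki-67 gene rose in all 3 sorts.

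Birc5, the survivin subunit of the passenger complex, rose by 4.92 ± 0.43 in CD29hiCD24+ cells, and Top2a, the topoisomerase that untangles sister chromatids, by 4.24 ± 0.50. The centromere genes Cenpf, Cenpe and Cenpa rose by 4.98 ± 0.58, 4.45 ± 0.48 and 3.61 ± 0.45. These 5 were called higher in CD29+CD24+ and Lin- cells too; the call of Cenpa in Lin- cells, at 1.18 ± 0.45, was lost without any one of 7 of the 8 sources, all but tumour C. Ndc80, which ties the kinetochore to microtubules, was like Plk1 in or near the low band outside tumour CD29hiCD24+ cells. In those cells it rose by 1.52 ± 0.41 and was not called in the other populations.

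**Figure D3:**
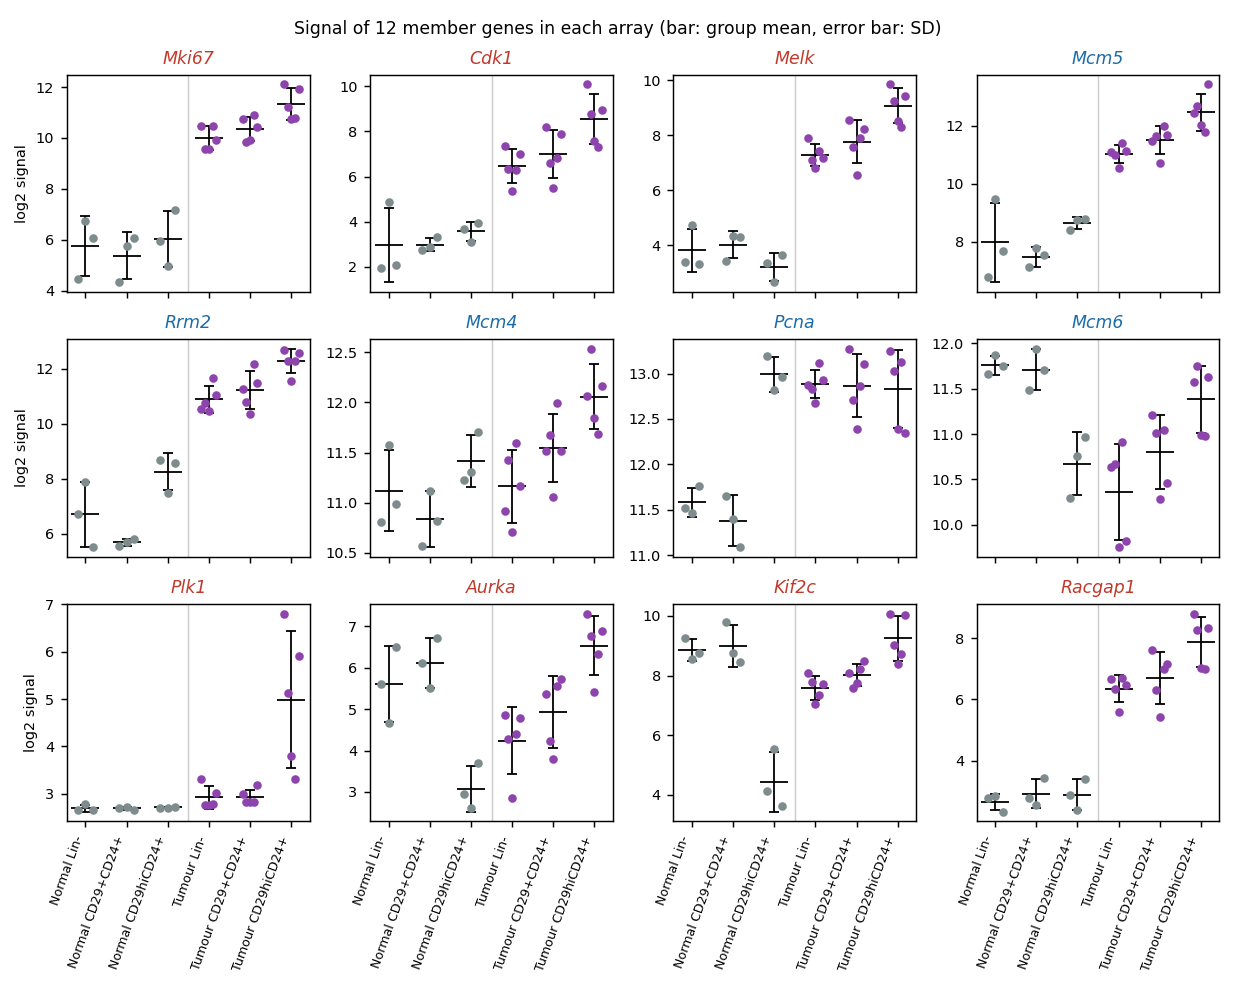
Log2 signal (vertical axis) in each array of 12 members, by group; points are arrays (grey 3 normal pools, purple 5 tumours), the long bar is the group mean and the error bars are SD. Mki67, Cdk1, Melk, Mcm5, Rrm2 and Racgap1 part tumour from normal in all 3 populations, Pcna joins the normal CD29hiCD24+ arrays to the tumours, and Mcm6, Aurka and Kif2c are low in normal CD29hiCD24+ arrays and high in the other normal arrays.

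All 8 spindle and cytokinesis genes rose in tumour CD29hiCD24+ cells, and 7 of them in every population. Racgap1, which organises the division furrow, had the largest difference in CD29hiCD24+ cells. It gave 2.86, 2.39 and 3.41 in pools F to H, near the low band, and 8.80, 8.28, 7.04, 7.01 and 8.32 in tumours A to E, with no overlap, and rose by 5.01 ± 0.46 (adjusted p = 3.27e-08, limma). In the other sorts it rose by 3.79 ± 0.46 and 3.70 ± 0.46. Nusap1 and Tpx2, which build and stabilise spindle microtubules, rose in CD29hiCD24+ cells by 4.89 ± 0.54 and 4.22 ± 0.39. Prc1 of the midzone and the motors Kif20a, Kif23 and Kif11 rose by 3.93 ± 0.50, 3.43 ± 0.56, 3.15 ± 0.51 and 2.86 ± 0.43. These 7 genes rose in the other 2 populations too; the call of Kif20a in CD29+CD24+ cells was lost without pool H, and its calls in both populations were lost with the description-number run as a block.

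Kif2c, a kinesin that takes microtubules apart at centromeres, was the exception among the 8. In CD29hiCD24+ cells the pools gave 4.14, 5.55 and 3.63 and the tumours 10.07, 9.03, 8.37, 8.73 and 10.01, a rise of 4.81 ± 0.43 without overlap (adjusted p = 2.6e-08, limma). In Lin- cells the pools gave 9.26, 8.56 and 8.74 and the tumours 8.07, 7.78, 7.05, 7.33 and 7.73, so that every tumour was lower, and Kif2c fell by 1.27 ± 0.43 (adjusted p = 0.0226). That call was lost without tumour D (adjusted p = 0.0511) and without pool F (0.103), and the difference shrank to -0.81 with the description-number run as a block (0.19) and with the mean of its probe sets (0.0806). In CD29+CD24+ cells the groups overlapped, at -0.96 ± 0.43 (adjusted p = 0.0783). A second probe set of Kif2c gave differences of the same signs, 0.87, -0.35 and -1.0 in CD29hiCD24+, Lin- and CD29+CD24+ cells, smaller in the first 2 of these.

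In normal glands the members did not separate the CD29hiCD24+ gate from the CD29+CD24+ gate in a single direction. Of 39 members 6 were called higher in CD29hiCD24+ cells and 4 lower, against 21.3% of all genes called higher and 25.3% called lower. The higher ones were Rrm2 (2.56 ± 0.50), Kif23 (2.16 ± 0.57), Pcna (1.61 ± 0.24), Rrm1 (1.53 ± 0.31), Top2a (1.46 ± 0.56) and Mcm3 (0.80 ± 0.32). The lower ones were Kif2c (-4.55 ± 0.48), Aurka (-3.03 ± 0.60), Mcm2 (-1.91 ± 0.42) and Mcm6 (-1.04 ± 0.30). Of the 10 replication members 4 were called higher and 2 lower, and of the 29 mitosis members 2 and 2, where 21.3% and 25.3% of all genes were called. The 2 classes were not tested against each other. The class medians were 0.69 and -0.0026, against -0.028 over all genes.

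Mki67 was not among them: its normal CD29hiCD24+ and CD29+CD24+ arrays overlapped, at 0.64 ± 0.58 (adjusted p = 0.411, limma). For Mcm2, by contrast, the CD29hiCD24+ arrays of pools F to H gave 4.63, 5.35 and 6.17 and the CD29+CD24+ arrays 7.31, 7.10 and 7.48, all 3 pools lower in the first gate. The same held for Aurka, with 2.96, 2.60 and 3.69 against 6.11, 5.51 and 6.72, and for Kif2c, whose CD29+CD24+ arrays gave 9.78, 8.74 and 8.44. The call of Mcm3 was lost without tumour B or pool F, G or H, that of Top2a without tumour B or E or pool F or H, and that of Mcm6 without pool F or pool G (adjusted p = 0.0609 and 0.0596). With the replicate block Mcm4 and Mcm5 were called as well.

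Against normal Lin- cells, CD29hiCD24+ cells gave 5 higher and 4 lower calls, where 17.0% of all genes were called higher and 23.2% lower. They were the genes of the comparison with CD29+CD24+ cells other than Top2a, with the same signs; the 2 comparisons share their CD29hiCD24+ arrays. Without pool F there were 4 calls in place of 9. Between normal CD29+CD24+ and Lin- cells no member was called (limma, adjusted), 0 had an unadjusted p under 0.05, and 4.19% of all genes were called.

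The normal sorts also differed in markers of cell types and in RNA quality. The mean over 7 luminal markers (of 8 listed) was 10.4 ± 1.24 in normal CD29hiCD24+ cells and 13 ± 0.0784 in CD29+CD24+ cells (SD, n = 3 each), and that over 8 basal markers 13 ± 0.155 and 3.42 ± 0.157. The 9 endothelial markers measured, of 10 listed, averaged 8.06 ± 1.41 in normal CD29hiCD24+ cells against 3.55 ± 0.348 in tumour CD29hiCD24+ cells (n = 5), and all 9 were called lower in the tumours. The mean of 10 leukocyte markers, of 12 listed, was 7.91 in the CD29hiCD24+ array of pool F and 3.01 and 3.08 in those of G and H. The 3′ minus 5′ signal of actin, which rises as RNA shortens, was 2.53 ± 0.345 in normal CD29hiCD24+ and 1.61 ± 0.212 in normal CD29+CD24+ arrays. Beyond fits with the leukocyte mean or the actin value as a covariate, their part in the differences was not tested. In the normal CD29hiCD24+ against CD29+CD24+ comparison the leukocyte fit lost Mcm3 and the actin fit Mcm3 and Top2a, and the actin fit lost Cenpa and Plk1 from the tumour against normal test of that gate difference. All 38 higher calls of tumour over normal CD29hiCD24+ cells held in both fits, and 36 held without the CD29hiCD24+ array of pool F, Mcm4 and Mcm6 being lost. The sample description numbers fall into 3 runs, tumours A and B, tumours C and D, and tumour E with the pools. With the run as a block, 36 calls held and the same 2 were lost. Only tumour E shares a run with the pools, so in that fit it alone sets the tumour level against them. For the other tumours, run and tissue cannot be told apart.

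Within the tumours, the difference between the CD29hiCD24+ and CD29+CD24+ gates had 1 sign for nearly all members, and few members passed the test without regard to pairing. Of 39 members, 38 had a positive difference from CD29+CD24+ cells and 9 were called higher, 0 lower, against 2.25% of all genes called higher. The medians were 1.22 for mitosis and 0.88 for replication members, against 0.0047 over all genes. The calls were Foxm1 (1.46 ± 0.25), Plk1 (2.06 ± 0.42), Cenpf (1.78 ± 0.50), Bub1b (1.57 ± 0.41), Ndc80 (1.27 ± 0.35), Mcm3 (1.0 ± 0.24), Rrm1 (0.89 ± 0.24), Mcm7 (0.86 ± 0.21) and Tyms (0.67 ± 0.12). Of these, Foxm1, Plk1, Ndc80 and Tyms are the members near the low band outside tumour CD29hiCD24+ cells; without Tyms and Ndc80 there were 7 calls among 37 members. The basal marker mean was 10.4 ± 0.696 in tumour CD29hiCD24+ and 8.95 ± 0.183 in tumour CD29+CD24+ cells (2 of 8 called higher), and the luminal mean 7.84 ± 0.527 and 9.24 ± 1.59 (1 of 7 called lower); their part in the result was not tested.

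The 3 sorts of a tumour are pairs, and arrays of the same tumour deviated together from their group means, with a median correlation across genes of 0.578 (15 pairs); for arrays of different tumours it was -0.167 (60 pairs). With the tumour or pool as a replicate block, 29 of 39 members were called higher and 0 lower, where 6.71% of all genes were called higher. Tyms and Ndc80 are among the 29. The block brought in, among others, Aurka (adjusted p = 0.00329), Melk (0.00879), Kif2c (0.0133) and Racgap1 (0.0152), whose adjusted p without it ran from 0.0559 to 0.0917 (limma). Without the block the count of calls changed when single tumours or pools were left out: it was 3 without tumour A, 2 without B, 3 without E and 5 without pool H. It was 0 in a fit of the 2 tumour groups alone, where 30 members had an unadjusted p under 0.05.

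Of the 5 tumours, D showed this difference least. Between the CD29hiCD24+ and CD29+CD24+ arrays of the same tumour, 38, 39, 39 and 36 of 39 members were higher in tumours A, B, C and E, with medians of 1.43, 1.50, 1.20 and 1.11. In tumour D only 22 were higher, with a median of 0.13. For Mki67 the pair was 10.78 and 10.90 in tumour D, the CD29hiCD24+ array being the lower, and 12.10 and 10.74 in tumour A. In all 5 tumours together 20 of 39 members were higher in every pair, Tyms and Ndc80 among them, against 13.9% of all genes. Of the 20, 6 were replication and 14 mitosis genes. In CD29hiCD24+ cells tumour A had the highest signal for 32 members, and tumour D the lowest for 23 and C for 14.

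**Figure D4:**
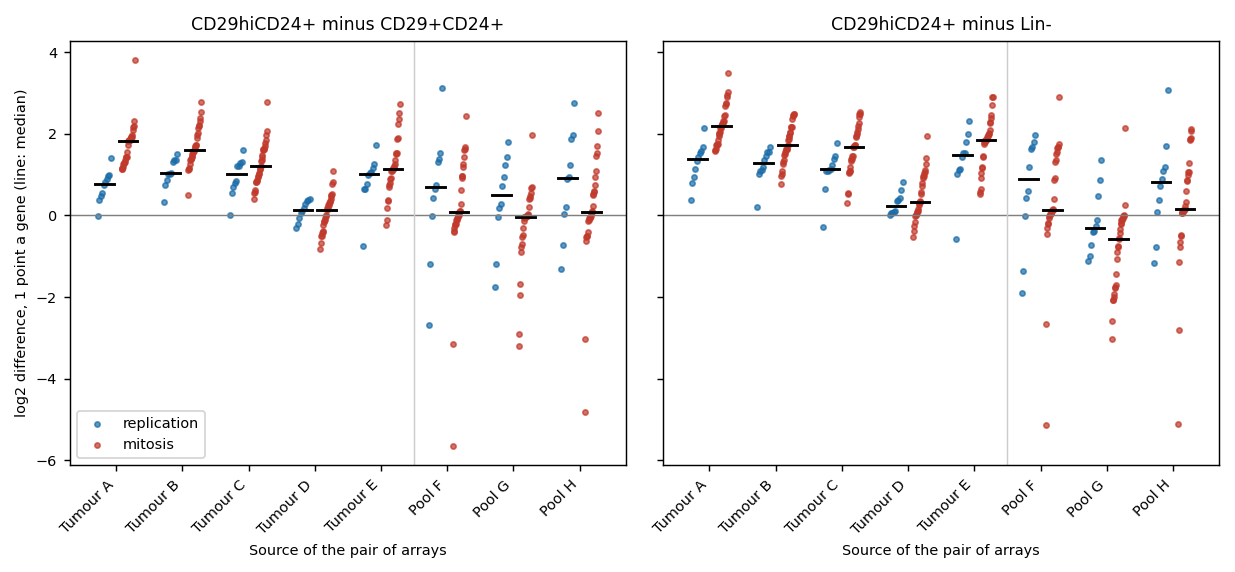
Difference between the CD29hiCD24+ array and the CD29+CD24+ array (left) or the Lin- array (right) of the same tumour or pool, in log2 units; each point is a member (blue replication, red mitosis) and the bar is the class median. The members of tumours A, B, C and E lie mostly above 0, and those of the normal pools F to H spread to both sides. Those of tumour D lie around 0 on the left. On the right 34 of its 39 members lie above 0, with a median of 0.34.

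Against tumour Lin- cells more members passed the test, with 31 members called higher and 0 lower where 3.74% of all genes were called higher. Of the 37 members other than Tyms and Ndc80, 29 were called. With the replicate block 37 of all 39 were called, where 8.34% of all genes were called higher; Mki67, Ccnb2, Kif11, Nek2, Prc1 and Ube2c were those gained. The medians were 1.55 for mitosis and 1.16 for replication members, and 9 of 10 replication members were called, all but Pcna. Mcm4 and Mcm6, which were not called against CD29+CD24+ cells, rose here by 0.89 ± 0.21 and 1.03 ± 0.24. Kif2c rose by 1.65 ± 0.37, Aurka by 2.30 ± 0.47 and Foxm1 by 1.80 ± 0.25. Without the block Mki67 did not pass the test, at 1.35 ± 0.45 (adjusted p = 0.0697, limma), although its CD29hiCD24+ arrays were all above its Lin- arrays. The count fell to 14 without tumour B and to 10 without tumour E, and it was 14 in a fit of the 2 groups alone.

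By tumour, 39, 39, 38, 34 and 38 of 39 members were higher than in Lin- cells of the same tumour in A to E. Tumour D again had the smallest median, 0.34, where the others ran from 1.45 to 2.03. In every pair 33 members were higher, Tyms among them, against 12.9% of all genes. The fibroblast markers moved with this comparison: their mean was 9.73 ± 1.93 (SD, n = 5) in tumour Lin- cells and 6.27 ± 0.633 in CD29hiCD24+ cells, 7 of 8 were called lower in the latter, and tumour D, at 6.83, had the lowest fibroblast mean of the Lin- arrays. Their part in the result was not tested. Between tumour CD29+CD24+ and Lin- cells no member was called (limma, adjusted), with 0 at an unadjusted p under 0.05; 38 of 39 differences were positive, with a median of 0.36, where 0.215% of all genes were called.

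Whether the gates differ more in tumours than in normal glands was tested as a difference of differences. Between CD29hiCD24+ and CD29+CD24+ cells it was called for 11 members, 10 with the larger value in tumours and 1 with the larger value in normal glands, against 22.2% and 19.8% of all genes. Tyms is one of the 10 and passed the filter only with its tumour CD29hiCD24+ arrays; 9 of the 37 members other than Tyms and Ndc80 were called larger in tumours. The 10 were Kif2c (5.76 ± 0.61), Aurka (4.63 ± 0.76), Mcm2 (2.81 ± 0.53), Melk (2.11 ± 0.63), Bub1b (2.08 ± 0.67), Plk1 (2.04 ± 0.68), Cenpa (1.78 ± 0.64), Mcm6 (1.62 ± 0.38), Foxm1 (1.51 ± 0.41) and Tyms (0.68 ± 0.20). Pcna was the one called the other way, at -1.65 ± 0.30 (adjusted p = 0.000181, limma). Mki67 gave 0.34 ± 0.74 and was not called. The median of this test was 1.17 over the mitosis members, with 25 of 29 above 0. Over the replication members it was 0.064, with 5 of 10 above 0, and over all genes 0.038. With the replicate block 16 were called larger in tumours, Tyms and Ndc80 among them, and 2 larger in normal glands, where 51.0% of all genes were called either way. Without pool G the calls of Melk, Bub1b, Plk1 and Cenpa were lost in the fit without the block, and without pool H those of the last 3; Plk1 was lost without pool F too, and Cenpa without tumour B or E. Under the block Rrm2 joined Pcna; its value was -1.50 ± 0.63 without the block (adjusted p = 0.0608).

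**Figure D5:**
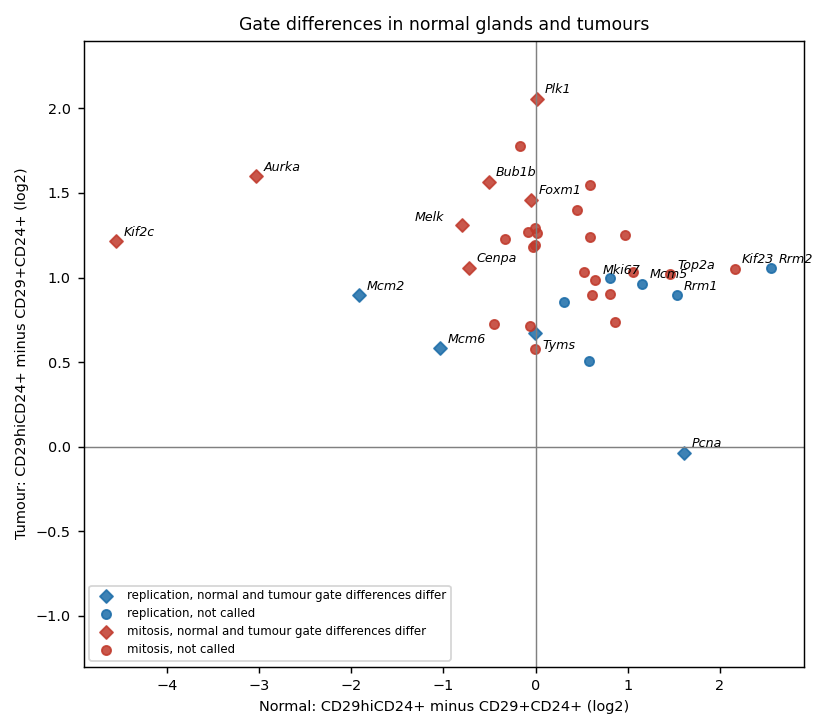
CD29hiCD24+ minus CD29+CD24+ log2 difference in normal glands (horizontal axis) and in tumours (vertical axis), 1 point per member (blue replication, red mitosis); diamonds mark the 11 members whose difference itself differed between tumour and normal at an adjusted p under 0.05. Kif2c, Aurka, Mcm2 and Mcm6 lie at upper left, lower in the normal CD29hiCD24+ gate and higher in the tumour one, and Pcna lies at the right, on the horizontal line at 0.

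With Lin- cells in place of CD29+CD24+ cells, 13 members were called with the larger value in tumours and Pcna the other way, at -1.46 ± 0.30, against 19.9% and 15.8% of all genes; the 2 tests share their CD29hiCD24+ arrays. Tyms is again one of the 13, and 12 of the 37 members other than Tyms and Ndc80 were called larger in tumours. Of the 13, 10 were those above and the others were Cenpf (2.44 ± 0.81), Nek2 (1.34 ± 0.47) and Mcm7 (0.93 ± 0.35). Each of these 3 calls was lost when any one of several sources was left out. Mcm7 was lost without tumour A, B or E or any pool, Nek2 without tumour A or B or any pool, and Cenpf without tumour E or any pool. Plk1 was lost here without tumour B or E or any pool, and Melk without pool G. Leaving out pool G took the count of calls from 14 to 9. For CD29+CD24+ against Lin- cells 0 members were called (limma), and 2, Ccnb2 and Rrm2, had an unadjusted p under 0.05, where 1.82% of all genes were called.

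Other genes of the same processes, from lists made for this work, are given for tumour against normal CD29hiCD24+ cells, where 15.6% of all genes tested were called higher and 22.9% lower. Of 37 further replication genes 30 were called higher and 1 lower, with a median of 1.43. The highest were the thymidine kinase Tk1 (6.55 ± 0.64), the polymerase subunit Pole (4.03 ± 0.36) and the clamp loader subunit Rfc5 (3.86 ± 0.42); the origin recognition subunit Orc2 was the one called lower, at -1.27 ± 0.21, and Rfc1 (0.61 ± 0.19) and Gins3 (0.68 ± 0.23) had the smallest rises. Of 48 further mitosis genes 43 were called higher and 0 lower, with a median of 2.78, from Cdca5 (5.92 ± 0.64), Pbk (5.83 ± 0.48) and Anln (5.44 ± 0.42) down to Gtse1 (1.18 ± 0.30), Knl1 (1.09 ± 0.39) and Cdc25c (0.87 ± 0.32). Of 21 genes that control entry into S phase, 8 were called higher and 1 lower, with a median of 0.42. Cdk6 (3.35 ± 0.27), Rbl1 (2.93 ± 0.45) and E2f8 (1.57 ± 0.45) were highest, E2f3 (-1.50 ± 0.25) was lower, and Mybl2 (0.42 ± 0.10) and Cks1b (0.59 ± 0.23) were the smallest of those called higher.

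The further mitosis list had a higher median than the further replication list in each tumour against normal comparison. The medians were 2.78 and 1.43 in CD29hiCD24+, 1.69 and 0.905 in CD29+CD24+, and 1.38 and 0.59 in Lin- cells. These lists were chosen with earlier results of these data known and read on the same arrays, so they are no independent check of the members. In normal CD29hiCD24+ cells 4 of the 29 mitosis members and 1 of the 10 replication members had a group mean in the low band; in tumour CD29hiCD24+ cells 0 members did.

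Several probe sets read 24 of the members. For tumour minus normal CD29hiCD24+ cells, all 37 further kept probe sets of called members had the sign of the one used; for CD29+CD24+ cells it was 32 of 33 and for Lin- cells 30 of 31. For the CD29hiCD24+ against CD29+CD24+ gates it was 10 of 12 in normal glands and 10 of 12 in tumours. In normal glands Top2a, Kif23 and Rrm2, called at 1.46, 2.16 and 2.56, each had another probe set near 0, at -0.0032, 0.015 and 0.21. In both normal gates that of Rrm2 had means in the low band, 2.33 and 2.55, and those of Top2a and Kif23 had means from 3.09 to 3.14, near it. The third probe set of Rrm2 gave 2.37. Sizes differed: Rrm2 gave 4.02, 4.21 and 5.45 in CD29hiCD24+ cells by its 3 probe sets, and Mcm5 3.83, 5.15 and 0.38. The further probe sets of Tyms gave 0.05 and 0.01 there against 0.75 for the one used. Of the 39 probe sets used, 6 carry the suffix x, which marks probes that can match other transcripts: those of Mcm4, Mcm5, Mcm6, Rrm2, Cdc20 and Kif2c. How much of these signals comes from other transcripts is not known.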

How the data were processed

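RNA of 24 sorted samples was hybridised to Affymetrix arrays after 2 rounds of labelling, per the labels' protocols. The deposited values are log2 signals made by the authors, 1 per probe set; the submitters' processing notes name RMA, GCRMA and Partek, and their order, roles and versions are not stated there. The deposited log2 values ran from 0.489 to 16.06 with array medians of 3.26 to 3.41, so no further normalisation was made. The number of arrays limits the precision.

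Of 45101 probe sets, 34945 were annotated to 1 gene, 932 to several and 9160 to none. The low band was set at the 40th percentile of all values (2.83). Probe sets above it in at least 3 arrays were kept (24278), and the kept one with the highest mean stood for its gene, which left 13485 of 18193 genes. The 6 group means were fitted over all 24 arrays with limma 3.58.1 (lmFit, eBayes with trend) in R 4.3.3, with Benjamini-Hochberg adjustment over all genes and a threshold of 0.05; errors are standard errors of the fit, or SD of arrays where stated. The fit was run on simulated data for tumour against normal CD29hiCD24+ cells only, with independent noise in each array. Shared deviations of sorts from the same source were not simulated, so that run says nothing of their effect.

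The letter in the sample titles names a tumour or gland pool, so sorts of 1 letter come from the same source; 2 titles without a letter were assigned to pool H by elimination. Deviations from group means correlated across genes at a median of 0.578 (0.359 to 0.738) within tumours and 0.142 (-0.0381 to 0.319) within pools. The replicate block was an alternative fit, with an estimated correlation of 0.321. Other alternatives were another filter or none, the mean of a gene's probe sets, quantile normalisation, no trend, only the groups compared, the description-number run as a block, leukocyte and actin covariates, and leaving out each source.

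Members and lists were chosen with earlier results of these data known. By rule, every array is given for the member of each of 6 role groups with the highest mean signal and with the largest tumour minus normal CD29hiCD24+ difference, and for members not called there; Mcm2, Mcm6, Aurka, Plk1, Foxm1 and Tyms were added after their values were seen. Of the other cell cycle lists the 3 highest and 3 lowest called genes are named. The erythroid marker list had 1 of 7 genes measured and was not used.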

Additional observations from a re-analysis of the deposited data

Results flagged for a closer look

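Aurka in the Lin- cells of tumour C gave 2.86, far below the other 4 tumours, whose values were 4.29 to 4.85. It was the 1 gap of this size among 48 groups checked, where chance gives about 1 in 20.

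The remaining values are differences of differences, the gate difference in tumours minus that in normal glands, each past the threshold in limma. Passing it was common. Against CD29+CD24+ cells 22.2% of all genes were called larger in tumours and 19.8% larger in normal glands. Against Lin- cells the shares were 19.9% and 15.8%. Only the named genes listed in the next section were screened, so other called members, such as Bub1b, Cenpa, Foxm1 and Tyms, are absent here. For CD29hiCD24+ against CD29+CD24+ cells and against Lin- cells in turn, Kif2c gave 5.76 and 6.07. Aurka gave 4.63 and 4.82, and Mcm2 gave 2.81 and 2.70. Melk gave 2.11 and 2.40. Plk1 gave 2.04 and 2.05, with most of its arrays outside tumour CD29hiCD24+ cells in or near the low band; its first call was lost without any one of the pools and with the actin covariate, and its second without tumour B or E or any one of the pools. Mcm6 gave 1.62 and 2.11. Pcna ran the other way, at -1.65 and -1.46. Both columns of values share the CD29hiCD24+ arrays.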

How the results depend on the processing

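No called difference changed direction. The named genes of this check were Aurka, Cdc20, Cdk1, Kif2c, Mcm2, Mcm4, Mcm5, Mcm6, Melk, Mki67, Pcna, Plk1, Racgap1 and Rrm2. They were followed in the tumour against normal comparisons and between the CD29hiCD24+ and CD29+CD24+ gates. Of their differences, 4 near 0 that were not called crossed it when 1 source was left out. These were Mcm4 between tumour and normal Lin- cells (-0.12 to 0.27) and Pcna between the tumour gates (-0.13 to 0.15). Between the normal gates they were Racgap1 (-0.086 to 0.022) and Plk1 (-0.011 to 0.041). For the other members, differences that were not called were not followed. Of the values of named genes 1245 stayed on their side of the threshold, 42 lost it and 43 gained it; of the counts, medians and shares 405 stayed, 10 were lower, 4 higher and 7 moved. With the replicate block, which pairs the sorts of a tumour or pool, 29 members were called between tumour CD29hiCD24+ and CD29+CD24+ cells in place of 9, and 18 in the tumour against normal test of that gate difference in place of 11; the first count was also 15 after quantile normalisation, 17 with the description-number run as a block and 0 with only the groups compared, and that against tumour Lin- cells was 14 with only the groups compared. Leaving out 1 source gave 2 to 12 calls in tumours against CD29+CD24+ cells, 10 to 31 against Lin- cells, 4 to 9 in normal glands against Lin- cells, and 9 to 18 in the test of the Lin- gate difference. For tumour against normal cells it gave 36 to 38 higher calls in CD29hiCD24+, 29 to 32 in CD29+CD24+ and 27 to 31 in Lin- cells. Averaging a gene's kept probe sets lowered the CD29hiCD24+ medians to 1.36 for replication and 3.33 for mitosis members, and the mitosis medians to 2.34 in CD29+CD24+ and 2.02 in Lin- cells; the stricter filter, which leaves Foxm1, Ndc80 and Tyms untested, raised the replication median to 2.10. On the gene's strand alone CCAAT was in 44.4% of replication and 54.2% of mitosis promoters, against 23.4% of tested genes. The causes were not tested. Signals in the low band, with 3 pools and 5 tumours, limit what can be seen for Plk1, Foxm1, Ndc80 and Tyms.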

Other observations

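For the tumour against normal test of CD29hiCD24+ against CD29+CD24+ cells, 8 of 21 genes of S phase entry were called with the larger value in normal glands and 1 with the larger value in tumours (limma, adjusted p under 0.05), with a median of -0.37; 12 were not called. For the further mitosis genes the counts were 1 and 17 of 48, with a median of 0.88, and for the further replication genes 6 and 15 of 37, with a median of 0.80. Over all genes 19.8% were called with the larger value in normal glands and 22.2% with the larger value in tumours. Among tumours, C had the lowest Lin- signal for 37 of 39 members and the lowest CD29+CD24+ signal for 29, and D had the highest Lin- signal for 22.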
